A study of Mus musculus with 4 samples.

Results

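Itga8 CA1-like nuclei were nuclei of the mouse hippocampus that carried at least 2 unique transcripts (UMIs) of the integrin gene Itga8 and, by their other transcripts, lay on the CA1 side of a marker gate. They were chosen by measured values, the UMIs of 16 genes in each nucleus. The CA1 side required at least 2 summed UMIs of 9 genes (Man1a, Galntl6, Gm10754, Gm10848, Cpne8, Gm2115, Gm2164, Ror1 and 4930419G24Rik), and more of them than of 6 genes of CA3 and the dentate gyrus (Grik4, Trps1, Ccbe1, Prox1, Glis3 and Maml2). Of 47103 kept nuclei, each with at least 600 UMIs and at most 5% mitochondrial UMIs, 366 met the rule. They numbered 20 and 105 in Trained replicates 1 and 2, against 98 and 143 in Untrained replicates 1 and 2. The gate genes came from a cluster of nuclei in the same libraries, so that Itga8 and the 15 other gate genes are described below with no test.

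The study profiled hippocampal nuclei of mice trained in active place avoidance, in which a mouse learns to keep away from a place where it is shocked, and of untrained mice, with 2 mice and 2 libraries in each group. Tissue was taken 3 days after a retention test, and recall was not triggered beforehand. All 4 libraries came from ArcCreERT2::eYFPflx mice, in which an inducible Cre recombinase under control of the activity-dependent gene Arc turns on a fluorescent protein, so that untrained mice carried the same alleles. The tag was not analysed here, and the ages of the mice were not given in the sources used here.

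CA1 pyramidal neurons are the main excitatory output cells of the hippocampus proper. They receive input from CA3 and the entorhinal cortex, project to the subiculum and cortex, and differ along the dorsal to ventral and the deep to superficial axes. Itga8 encodes the integrin alpha 8 subunit, which pairs with the beta 1 subunit (Itgb1) at the cell surface and binds matrix proteins such as nephronectin and fibronectin. Integrins of synapses act in adhesion and in the plasticity of excitatory transmission.

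The libraries were shallow for single nuclei. Kept nuclei numbered 6019 and 12205 in Trained replicates 1 and 2, with medians of 736 and 887 UMIs, against 16916 and 11963 in Untrained replicates 1 and 2, with medians of 957.5 and 1080 UMIs. Between 17 and 65 barcodes of kept nuclei were shared by any pair of libraries, at most 0.533% of the smaller one. Summed over its Itga8 CA1-like nuclei, Trained replicate 1 held 19635 UMIs and Trained replicate 2 held 145020, against 169714 and 274457 in Untrained replicates 1 and 2. In Trained replicate 1 a single UMI was thus worth 50.9 CPM, the count of a gene scaled to a common library total, so that low genes of that library were read in steps of this size.

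Nearly all members sat at the lower edge of the rule. Exactly 2 Itga8 UMIs were found in 321 members, 3 in 43 and 4 in 2 of them. A further 2171 CA1-side nuclei held exactly 1 Itga8 UMI and lay just outside, and 16036 held none. On the CA1 side of the gate, 12 members had the lowest permitted sum of 2. Among nuclei with at least 2 Itga8 UMIs, 22 were left out with a CA1-side sum of 1, and 50 because that sum did not exceed the sum of the CA3 and dentate genes. Within the members, 196 had no UMI of the CA3 and dentate genes, 88 had 1 and 82 had at least 2.

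The CA1 side of the gate rested unequally on its genes. Galntl6, an enzyme of the GalNAc-transferase family, was detected in 96.4% of members and 89.1% of CA1-side nuclei without Itga8. The transcript 4930419G24Rik was found in 61.5% of members, against 44.8% of CA1-side nuclei without Itga8. Man1a, a mannosidase of the Golgi, was found in 41.0% of members against 24.6%, Gm10848 in 38.8% against 20.1%, and Ror1, a receptor of Wnt5a, in 29.5% against 16.6%. Each of these pooled shares was higher in members, which also held more UMIs per nucleus, although in Trained replicate 1 Gm10848 was found in 2 of 20 members, against 12.3% of CA1-side nuclei without Itga8. In pooled shares all 6 opposing genes of CA3 and the dentate gyrus were found more often in members as well. Maml2 was found in 19.1% of members against 8.56%, Glis3 in 9.84% against 3.59% and Prox1 in 8.74% against 4.36%. Single libraries went the other way for Trps1 in Trained replicate 1 (5% against 15.5%) and Prox1 in Trained replicate 2 (3.81% against 3.94%). Ccbe1 did so in Untrained replicate 1 (2.04% against 2.10%). Without Galntl6, 80 of the 366 members (21.9%) would not have passed, against 44.4% of CA1-side nuclei without Itga8. In Trained replicate 1 these were 12 of 20 members, beside 24.8% in Trained replicate 2, 13.3% in Untrained replicate 1 and 20.3% in Untrained replicate 2.

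Markers that the gate did not use placed the members with CA1 neurons. The 8 CA1 pyramidal markers summed to 1732 and 2193 CPM in members of Trained replicates 1 and 2, and to 2221 and 2186 CPM in those of Untrained replicates 1 and 2. In CA1-side nuclei without Itga8 the same sum was 1557 and 1753 CPM in the Trained libraries and 1642 and 1663 CPM in the Untrained ones. In nuclei on the CA3 and dentate side it was far lower, between 536 and 725 CPM. Most of the sum was Pex5l, which encodes a regulator of HCN channels and stood at 1222 and 1614 CPM in Trained members and at 1650 and 1567 CPM in Untrained members. The defining dorsal CA1 genes Wfs1, Fibcd1 and Spink8 were near the floor, with 24, 16 and 15 UMIs over all 366 members, and the ventral genes Dcn and Gpc3 had 0 and 5. The position of the members along the dorsal to ventral axis could not be read at this depth.

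Other markers in the members differed between libraries. The 12 inhibitory neuron markers summed to 2496 CPM in members of Trained replicate 1 and 800 CPM in Trained replicate 2, against 1208 and 987 CPM in Untrained replicates 1 and 2. In CA1-side nuclei without Itga8 that sum was 2547 and 2711 CPM in the Trained and 2492 and 2706 CPM in the Untrained libraries. The members of Trained replicate 1 alone were thus close to the CA1-side nuclei without Itga8 in this sum. Members of Trained replicate 1 also had 1120 CPM of 4 dentate granule markers, against 430 to 576 CPM in members of the other 3 libraries. In CA1-side nuclei without Itga8 the dentate sum was 569 and 414 CPM in Trained replicates 1 and 2. It was 327 and 378 CPM in Untrained replicates 1 and 2, and thus below the members in each library. Oligodendrocyte markers summed to 815 and 834 CPM in Trained members and to 748 and 1170 CPM in Untrained members. On the CA3 and dentate side they stood at 1132 and 1181 CPM (Trained) and at 1074 and 1136 CPM (Untrained). CA1-side nuclei without Itga8 had 1051 and 1087 CPM (Trained) and 929 and 922 CPM (Untrained). Members were thus below both of these populations except in Untrained replicate 2.

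**Figure D1:**
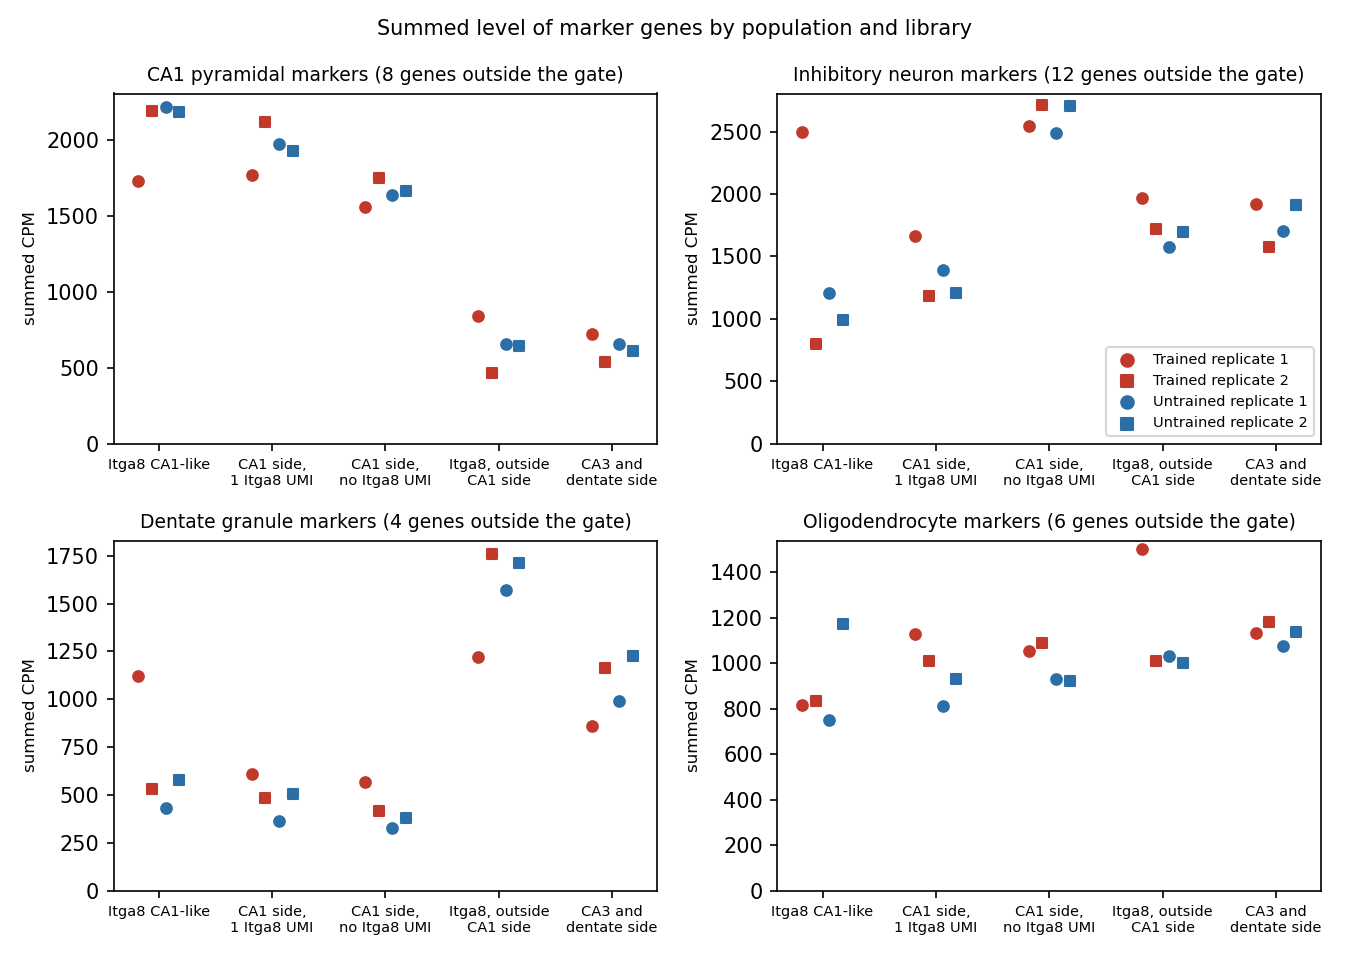
Summed CPM of 4 marker lists (vertical axes, from 0) in 5 populations of nuclei (horizontal axes); each point is 1 library, red for Trained and blue for Untrained, circles for replicate 1 and squares for replicate 2. CA1 markers stand at 1732 to 2221 CPM in Itga8 CA1-like nuclei and dentate markers at 1220 to 1759 CPM in Itga8 nuclei outside the CA1 side, and Trained replicate 1 stands apart in the inhibitory and dentate lists of the Itga8 CA1-like nuclei.

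Itga8 was not restricted to the CA1 side. Of 696 nuclei with at least 2 Itga8 UMIs, 330 lay outside the CA1 side, and these carried the dentate markers at 1220 and 1759 CPM in the Trained and 1574 and 1714 CPM in the Untrained libraries. At least 2 Itga8 UMIs were found in 366 of 18573 CA1-side nuclei (1.97%) and in 330 of 28530 other nuclei (1.16%). The order was the same in each library, at 0.870% against 0.645% and 2.02% against 1.23% in Trained replicates 1 and 2, and at 1.57% against 1.12% and 2.95% against 1.40% in Untrained replicates 1 and 2.

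After every nucleus was thinned to 600 UMIs, at least 1 Itga8 UMI was found in 9.18% and 8.75% of CA1-side nuclei in Trained replicates 1 and 2, against 5.70% and 8.05% in Untrained replicates 1 and 2. On the CA3 and dentate side the Trained libraries had 7.07% and 8.89% such nuclei, and the Untrained libraries 7.81% and 8.23%. Nuclei gated as oligodendrocytes, which served as a background for free RNA, had shares of 4.76% and 7.84% (Trained) and of 2.38% and 6.54% (Untrained), from 21, 51, 84 and 107 nuclei. All other nuclei had 7.25% and 6.49% in the Trained and 4.25% and 4.70% in Untrained libraries, below the CA1 side in each library. The CA3 and dentate side was above the CA1 side in 3 of 4 libraries and below it in Trained replicate 1. Without thinning, 12.1% and 14.6% of CA1-side nuclei of the Trained libraries and 11.3% and 16.4% of those of the Untrained libraries had an Itga8 UMI, against 8.71% and 8.79% (Trained) and 5.92% and 6.90% (Untrained) of the other nuclei. The CA1-side shares were taken at median depths of 762, 947, 1098 and 1221 UMIs. The oligodendrocyte shares were then 4.76%, 7.84%, 4.76% and 12.1% at medians of 722, 913, 808 and 893 UMIs, and the exact 95% interval of the first ran from 0.120% to 23.8%. With and without thinning, the oligodendrocyte share was below the CA1-side share in all 4 libraries, with wide intervals that cover counting error only.

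Members were deep nuclei, and fewer of them held at least 2 inhibitory UMIs. Their median depth was 898 and 1177 UMIs in Trained replicates 1 and 2 and 1554 and 1645 UMIs in Untrained replicates 1 and 2. In CA1-side nuclei without Itga8 it was 757 and 930 UMIs in the Trained and 1073 and 1186 UMIs in the Untrained libraries. The mean of the library medians was 1318 ± 346 UMIs in members and 986.5 ± 185 UMIs in CA1-side nuclei without Itga8 (SD, n = 4), higher in members of 4 of 4 libraries. The rule itself favours deep nuclei, since 2 UMIs of 1 gene are met more often with more UMIs. Inhibitory UMIs were counted here over part of the inhibitory list: Gad1, Gad2, Erbb4, Nxph1, Kcnmb2 and Dlx6os1. At least 2 of them were found in 10.1% ± 4.47 of members and 23.4% ± 3.27 of CA1-side nuclei without Itga8 (SD, n = 4). The share was lower in members of 4 of 4 libraries. The gap was smallest in Trained replicate 1, at 15% of its 20 members against 19.7%. Because of how the members were chosen, no p-value is given for either difference.

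Members also scored higher for doublets, droplets that hold more than 1 nucleus. A score from simulated doublets marked 4 of 20 and 17 of 105 members in Trained replicates 1 and 2, against 26 of 98 and 37 of 143 in Untrained replicates 1 and 2. That was 16.2% to 26.5% of members, while 5.96% to 7.48% of all kept nuclei were marked. Doublets stayed in all values below unless stated, because the rule does not remove them, and the part of deep nuclei in this score was not tested.

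The share of Itga8 CA1-like nuclei among kept nuclei did not separate the groups. It was 0.332% and 0.860% in Trained replicates 1 and 2, against 0.579% and 1.20% in Untrained replicates 1 and 2. The means were 0.596% ± 0.373 in Trained and 0.887% ± 0.436 in Untrained libraries (SD, n = 2 each), a log2 ratio of -0.57 with overlapping groups (exact two-sided permutation test of libraries, p = 0.667, where 2 against 2 cannot go below 0.33). The direction did not hold at equal depth: after thinning to 600 UMIs the shares were 0.166% and 0.287% in Trained libraries and 0.0946% and 0.226% in Untrained libraries, a log2 ratio of 0.50. It was also 0.04 as deposited without Untrained replicate 2, and -1.42 without Trained replicate 2. Counting thinned nuclei with at least 1 Itga8 UMI on the CA1 side, an alternative added after the data were seen, gave 3.29% and 3.32% in Trained against 1.76% and 2.87% in Untrained libraries (log2 ratio 0.51, exact permutation p = 0.33, the smallest possible).

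**Figure D2:**
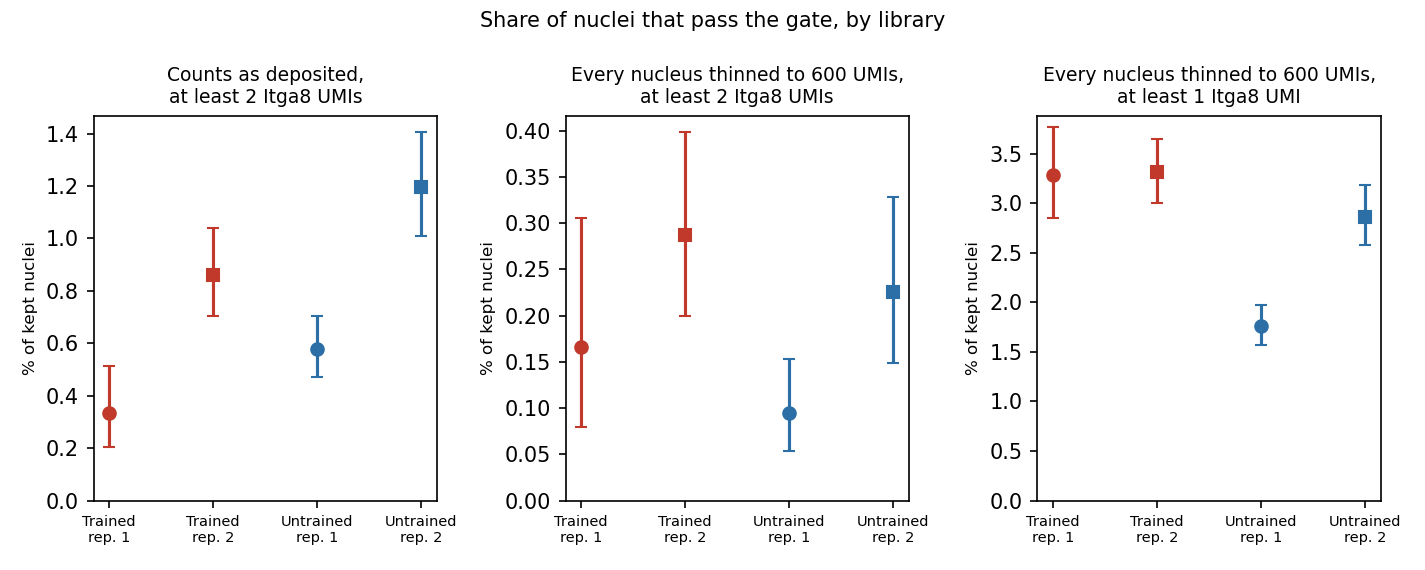
Percent of kept nuclei that met the rule in each library (vertical axes, from 0), with counts as deposited (left), after thinning every nucleus to 600 UMIs (middle) and after thinning with at least 1 Itga8 UMI (right); bars are exact 95% binomial intervals, which cover counting error only. The Trained libraries are 0.332% and 0.860% against 0.579% and 1.20% in the Untrained libraries as deposited, and the order of the group means turns round after thinning.

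To describe what else the members shared, their counts were summed per library and compared with those of CA1-side nuclei without Itga8 of the same library. Of 11083 genes tested outside the gate, 118 (1.06%) passed an adjusted p of 0.05 in edgeR's quasi-likelihood F test (Benjamini-Hochberg adjusted), with the library as a block. At an unadjusted p under 0.05 there were 1058 genes (9.55%). Members were higher in 28 genes (0.253%) and lower in 90 (0.812%). Because the gate was drawn from a cluster of these same nuclei, these calls rank the genes and are no independent test. The lower calls held the same direction in every library for 83 of 90 genes. The higher calls did so for 6 of 28 genes, and for a further 20 of them the exception was Trained replicate 1 with its 20 nuclei, where the direction of a low gene can also turn with the scaling.

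Leaving out 1 predicted transcript, the genes that were higher in every library were Plekhg5, Prkd1, Cttnbp2nl, Gse1 and Rfx3. CPM in this comparison were scaled by TMM, a library size correction, under which 1 UMI in members of Trained replicate 1 was worth 35.5 CPM. In that library Plekhg5, Prkd1, Cttnbp2nl and Rfx3 were higher by less than 1 UMI, which does not resolve their direction there. Plekhg5, a guanine nucleotide exchange factor, stood at 142 and 208 CPM in members of Trained replicates 1 and 2 and at 196 and 172 CPM in those of Untrained replicates 1 and 2. CA1-side nuclei without Itga8 had 129 and 118 CPM of it in the Trained and 91.9 and 110 CPM in the Untrained libraries. The fitted log2 difference was 0.79 (SE 0.19, edgeR adjusted p = 0.00539), and members lay above every CA1-side value. The level was not particular to the members: pooled over libraries without scaling, Plekhg5 stood at 169 CPM in members, 188 CPM in Itga8 nuclei outside the CA1 side, 150 CPM on the CA3 and dentate side and 101 CPM in CA1-side nuclei without Itga8. Prkd1, the kinase protein kinase D1, had 142 and 131 CPM in Trained and 97.9 and 201 CPM in Untrained members, against 129 and 95.6 CPM in the Trained and 73.8 and 81.0 CPM in the Untrained CA1-side sums. It was higher within each library at a log2 difference of 0.82 (SE 0.20, edgeR adjusted p = 0.00782), although the ranges overlapped between libraries. Without Untrained replicate 2 it stood at 0.40 (edgeR adjusted p = 0.971) and did not pass. Pooled without scaling, Prkd1 was lower in members, at 140 CPM, than in Itga8 nuclei outside the CA1 side, at 282 CPM, or on the CA3 and dentate side, at 172 CPM.

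Rfx3 and Gse1 showed smaller differences. Rfx3, a transcription factor of the RFX family that is also a dentate marker, had 355 and 369 CPM in Trained and 372 and 336 CPM in Untrained members, against 331 and 261 CPM in the Trained and 218 and 229 CPM in the Untrained CA1-side sums. Its log2 difference was 0.56 (SE 0.16, edgeR adjusted p = 0.0410). Gse1 had a log2 difference of 0.58 (SE 0.16) and Cttnbp2nl one of 1.20 (SE 0.31), the last from 1 UMI in Trained replicate 1. Pooled without scaling, Rfx3 had 324 CPM in members, against 1002 CPM in Itga8 nuclei outside the CA1 side and 649 CPM on the CA3 and dentate side. None of the 5 genes passed without Untrained replicate 2, where Cttnbp2nl stood at 0.64. With marked doublets removed Plekhg5, Prkd1, Gse1 and Rfx3 did not pass, at log2 differences of 0.74, 0.62, 0.50 and 0.42.

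Among all genes passing the threshold outside the gate, those most like Itga8, by the size of the difference, included Mecom, Elmsan1, Cttnbp2nl, Fbn2, Fbxl7, Prkd1, Inhba, Plekhg5 and Tbc1d1, at log2 differences of 1.44 down to 0.73 over 4 libraries. Cttnbp2nl, Prkd1 and Plekhg5 were higher in 4 of 4 libraries, in Trained replicate 1 by less than 1 UMI, and the other named genes in 3 of 4. Inhba, a subunit of activin ligands, had 35.5 and 92.3 CPM in Trained and 131 and 152 CPM in Untrained members, against 65.5 and 78.4 CPM in the Trained and 80.4 and 62.0 CPM in the Untrained CA1-side sums.

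**Figure D3:**
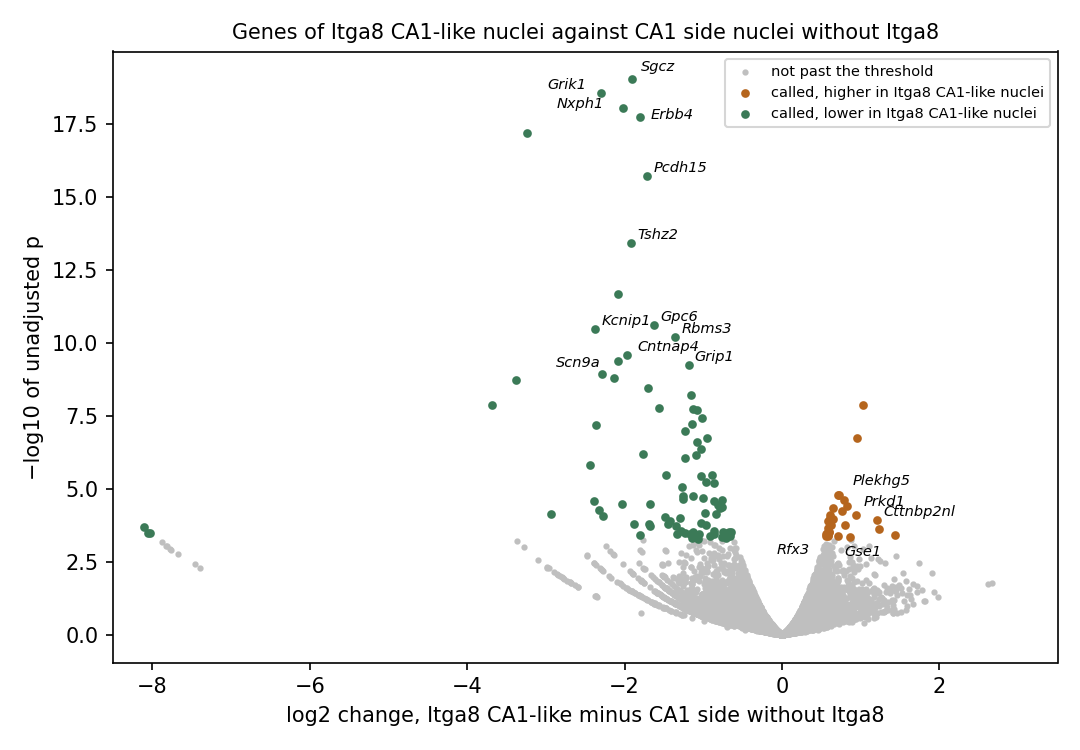
Each point is 1 of the 11083 genes tested, with its log2 difference between Itga8 CA1-like nuclei and CA1-side nuclei without Itga8 (horizontal axis) and the −log10 of its unadjusted p (vertical axis). The 28 higher calls lie between 0.56 and 1.44 while the 90 lower calls reach further from 0, and the 11 genes below -7 had 0 UMIs in the members, so that their fitted size has no meaning.

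Sgcz had the smallest p of the lower calls. Sgcz, a sarcoglycan of the cell membrane, had 178 and 346 CPM in members of Trained replicates 1 and 2 and 307 and 377 CPM in those of Untrained replicates 1 and 2. CA1-side nuclei without Itga8 had 788 and 1348 CPM in the Trained and 1152 and 1322 CPM in the Untrained libraries. Its log2 difference was -1.90 (SE 0.21, edgeR adjusted p = 1.04e-15), and no member sum reached a CA1-side sum. Pooled without scaling it stood at 310 CPM in members, 384 CPM in Itga8 nuclei outside the CA1 side and 434 CPM on the CA3 and dentate side, against 1147 CPM in CA1-side nuclei without Itga8, so that the low level was not particular to the members. Grik1, a kainate receptor subunit of interneurons, had 0 and 46.2 CPM in Trained and 45.7 and 61.4 CPM in Untrained members, against 189 and 299 CPM in the Trained and 209 and 249 CPM in the Untrained CA1-side sums. Erbb4, the neuregulin receptor of interneurons, had 284 and 138 CPM in Trained and 372 and 356 CPM in Untrained members, against 846 and 1104 CPM in the Trained and 937 and 1097 CPM in the Untrained CA1-side sums. Pooled levels of Grik1 were 46.0 CPM in members and 45.3 CPM in Itga8 nuclei outside the CA1 side, and those of Erbb4 were 279 and 172 CPM. Grik1 and Erbb4 likewise did not overlap between the populations, at log2 differences of -2.30 (SE 0.26) and -1.81 (SE 0.21).

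Tshz2, a zinc finger transcription factor used here as a subiculum marker, had 71.1 and 53.9 CPM in Trained and 58.8 and 49.1 CPM in Untrained members, against 104 and 272 CPM in the Trained and 160 and 210 CPM in the Untrained CA1-side sums. It was lower in members of every library, at a log2 difference of -1.92 (SE 0.25, edgeR adjusted p = 6.24e-11). Nxph1, a neurexin ligand of interneurons, was lower at -2.02 (SE 0.23), Pcdh15, a protocadherin, at -1.71 (SE 0.21) and Gpc6, a glypican, at -1.63 (SE 0.24). Kcnip1, which modulates Kv4 potassium channels, was lower at -2.37, Cntnap4, a cell adhesion protein of interneurons, at -1.97, and the sodium channel gene Scn9a at -2.08. The RNA-binding protein gene Rbms3 was lower at -1.36 and Grip1, a scaffold of AMPA receptors, at -1.19. These low levels were not particular to the members. Pooled without scaling, Itga8 nuclei outside the CA1 side also lay below CA1-side nuclei without Itga8 in each gene of this paragraph. In members, these outside nuclei and CA1-side nuclei without Itga8, Nxph1 stood at 73.9, 64.4 and 308 CPM. In the same order Tshz2 stood at 49.3, 59.6 and 186 CPM, and Pcdh15 at 107, 141 and 360 CPM.

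**Figure D4:**
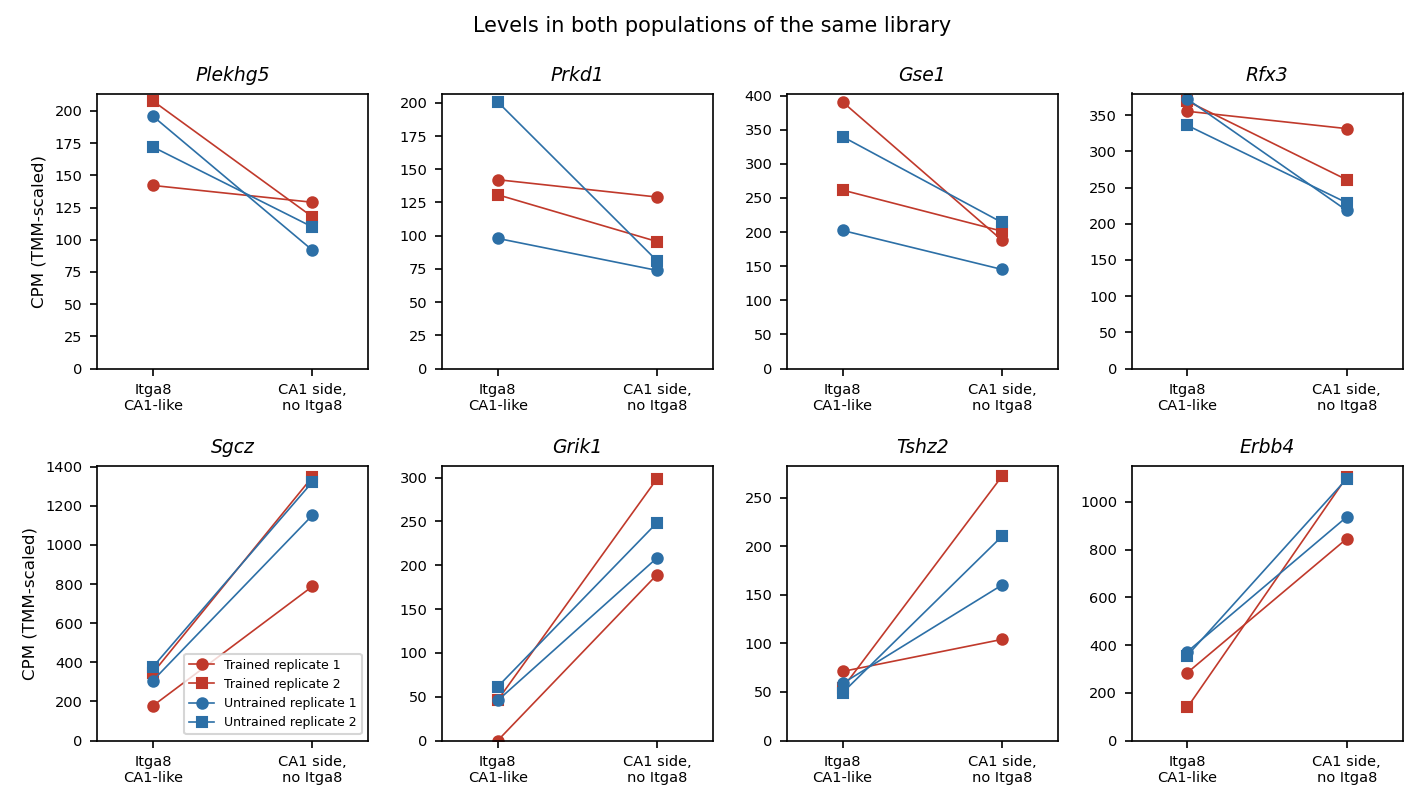
TMM-scaled CPM (vertical axes, from 0) of 8 genes in Itga8 CA1-like nuclei and in CA1-side nuclei without Itga8; each line joins the 2 values of 1 library, red for Trained and blue for Untrained. All lines fall from left to right for Plekhg5, Prkd1, Gse1 and Rfx3, and all lines rise for Sgcz, Grik1, Tshz2 and Erbb4, where members of Trained replicate 1 had no Grik1 UMI. The fall in Trained replicate 1 is less than 1 UMI for Plekhg5, Prkd1 and Rfx3.

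Leaving Galntl6 out of the CA1 side left 286 members and removed most of these calls. Of 7901 genes tested, 13 (0.165%) then passed in the same edgeR test, and all 13 were among the 118. Of the 118 genes 110 could be tested and 109 had the same sign, beside 468 genes (5.92%) at an unadjusted p under 0.05. This alternative was added after inhibitory nuclei were seen to pass through Galntl6 alone. Members were then higher in 2 genes (0.0253%), Plcl1, a phospholipase C-like signalling protein, at a log2 difference of 0.83 (SE 0.18), and in Mecom, a zinc finger transcription factor, at 2.13 (SE 0.50). Both rested on some libraries: Plcl1 had 291 against 297 CPM in Trained replicate 1, and Mecom was higher in the Untrained libraries alone. Members were lower in 11 genes (0.139%), which included Sgcz at -1.53 (SE 0.22), Tshz2 at -2.12 (SE 0.30), Gpc6 at -1.75 (SE 0.33), Grik1 at -1.50 (SE 0.32), Nxph1 at -1.44 (SE 0.30), Pcdh15 at -1.08 (SE 0.24) and Dpp10, a Kv4 channel partner, at -1.12 (SE 0.24). Erbb4 stood at -0.34 (SE 0.20, edgeR adjusted p = 0.874), Plekhg5 at 0.43 (SE 0.22, edgeR adjusted p = 0.840) and Rfx3 at 0.35 (SE 0.19, edgeR adjusted p = 0.850), and none of the 3 passed. Prkd1 stood at 0.67 (SE 0.24, edgeR adjusted p = 0.554) and did not pass either. Nor did Kcnip1, Cntnap4, Scn9a, Rbms3 or Grip1, at log2 differences between -1.75 and -0.62.

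Other comparison nuclei gave other counts. Against CA1-side nuclei with exactly 1 Itga8 UMI, 1 of 5852 genes passed in the edgeR test, Sgcz, at a log2 difference of -0.64. Against CA1-side nuclei drawn to the depth of the members, 216 of 5416 genes (3.99%) passed, 74 higher (1.37%) and 142 lower (2.62%), and 96 of them were among the 118. Single libraries also mattered: the count was 370 when Trained replicate 1 was left out and 46 when Trained replicate 2 was. Leaving out Untrained replicate 1 gave 47 genes, and leaving out Untrained replicate 2 gave 32. All 118 genes were again called without Trained replicate 1. With marked doublets removed 117 genes passed, of which 82 were among the 118, with 12 of the 28 higher and 70 of the 90 lower calls. With no filter on low counts 91 passed, and 90 of them were among the 118, with 2 of the 28 higher calls. The 2 were 1700007F19Rik and 4921539H07Rik, also the 2 higher calls kept without the library block. Pooled without scaling, they had 179 and 189 CPM in members and 97.8 and 96.4 CPM in CA1-side nuclei without Itga8. CA1-side nuclei with exactly 1 Itga8 UMI had 155 and 151 CPM, and Itga8 nuclei outside the CA1 side 21.5 and 11.9 CPM. Neither passed with Galntl6 left out of the gate.

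Gene lists described the same comparison by role. Of 11 inhibitory markers tested, 6 were lower in members and 0 were higher (Nxph1, Erbb4, Kcnmb2, Dlx6os1, Gad2 and Adarb2), with a list median of -0.76 against -0.04 over all genes. Gad2, a GABA-synthesising enzyme, differed by -1.48 (SE 0.32). Without Galntl6 in the gate, 1 of 9 was lower and the list median was -0.35 against -0.03 over all genes. Of 8 CA1 pyramidal markers 1 was higher, 6 differences were positive and the list median was 0.24. Of 4 excitatory markers 1 was higher, 4 differences were positive and the list median was 0.26, where Slc17a7, the main vesicular glutamate transporter of the hippocampus, differed by 0.02 (SE 0.17). Without Galntl6 in the gate neither list had a call in edgeR, and each had 1 gene at an unadjusted p under 0.05.

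Lists of regional identity held few calls. Htr2c, a serotonin receptor of ventral CA1, was lower at -1.13 (SE 0.26, edgeR adjusted p = 0.00432), the only call among 3 ventral markers tested. It stood at -0.52 with Galntl6 left out of the gate and did not pass. No edgeR call was made among 3 dorsal markers (0 at an unadjusted p under 0.05), in the superficial marker Calb1 (-0.03, SE 0.29) or in the deep marker Ndst4 (0.09, SE 0.18). Of 2 subiculum markers Tshz2 was lower. Of 4 dentate markers Rfx3 was higher, with 2 at an unadjusted p under 0.05 in edgeR. Of these 4, 3 differences were positive and the list median was 0.38. With Galntl6 left out, 2 dentate markers were tested with no call and a median of 0.40. The CA1 pyramidal median was then 0.12. None of 4 CA2, 2 CA3, 4 thalamic and 5 cortical markers passed. Of them 0, 1, 2 and 1 had an unadjusted p under 0.05 in edgeR, beside 9.55% of all genes. Lhfpl3, a marker of oligodendrocyte precursors, was lower at -1.23 (SE 0.23), the only call among 3. It stood at -0.99 with Galntl6 left out of the gate and did not pass. None of 6 oligodendrocyte, 5 astrocyte and 2 choroid plexus markers passed, with 1 of each under an unadjusted 0.05, and none of 2 microglia, 1 endothelial and 1 ependymal markers passed, with 0 under it.

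Partners of the integrin did not stand out. None of 9 other integrin subunits tested passed in edgeR, 0 had an unadjusted p under 0.05, and the list median was 0.11. Itgb1, the partner subunit of integrin alpha 8, had 0, 38.5, 71.8 and 53.2 CPM in members of the Trained and then the Untrained libraries, against 45.4 to 56.5 CPM in CA1-side nuclei without Itga8 (log2 difference 0.05, SE 0.30). Of the ligands only Npnt, which encodes nephronectin, reached the count filter, at 0.37 (SE 0.54). None of 20 genes of the integrin adhesion complex passed. Ptk2b, the kinase PYK2, was the 1 gene of them with an unadjusted p under 0.05, at a log2 difference of 0.47 (SE 0.16, edgeR adjusted p = 0.145), and Ptk2, the focal adhesion kinase, stood at 0.27 (SE 0.16).

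Genes related to the gate genes gave few calls. Of 32 enzymes of Golgi glycan synthesis, which is the setting of Man1a and Galntl6, Galnt14 was lower at -1.14 (SE 0.33) and 0 were higher. The list had a median of 0.07 and 9 genes at an unadjusted p under 0.05 in edgeR. Beside it and the lists below, 9.55% of all genes lay under 0.05. At matched depth 2 of 25 were higher and 1 was lower, beside 1.37% higher and 2.62% lower of all genes. Galnt14 stood at -0.85 with Galntl6 left out of the gate and did not pass. None of 7 other copines passed, 2 had an unadjusted p under 0.05, and Cpne4 stood at -0.68 (SE 0.22). Of 14 genes of Wnt5a signalling and planar polarity, in which Ror1 is a receptor, Celsr2 was lower at -1.88 (SE 0.50). It stood at -2.17 with Galntl6 left out of the gate and did not pass. None of 17 immediate early genes and none of 11 genes of memory and plasticity passed in edgeR, with 1 and 0 at an unadjusted p under 0.05, and Arc stood at -0.39 (SE 0.39).

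Gria4, an AMPA receptor subunit of interneurons, was lower at -1.02 (SE 0.19), and Gria1, the main AMPA receptor subunit of CA1, stood at 0.34 (SE 0.22) and did not pass. No edgeR call was made among 6 NMDA receptor and 12 GABA-A receptor genes, of which 1 and 4 had an unadjusted p under 0.05, beside 9.55% of all genes. Of 34 potassium channel genes Kcnip1 and Dpp10 were lower and Kcnj6, a G protein-gated channel, was higher at 0.60 (SE 0.15). Cacna2d2 was lower among 20 sodium and calcium channel genes, Cntn5 and Lrrtm3 among 27 genes of synaptic adhesion, and Pcdh15 among 20 cadherins. Of 32 axon guidance genes Unc5d and Efna5 were lower and Sema3e, a secreted semaphorin, was higher at 0.65 (SE 0.17). An unadjusted p under 0.05 was found for 14 of these 32 genes, 7 of 34 potassium channel, 7 of 27 synaptic adhesion and 6 of 20 cadherin genes, beside 9.55% of all genes. At matched depth 6 axon guidance genes were higher and 4 lower of 26, and 7 of 25 synaptic adhesion genes and 3 of 19 cadherins were lower, beside 3.99% of all genes called. With Galntl6 left out of the gate, Dpp10 and Pcdh15 still passed. Gria4, Kcnip1, Cacna2d2, Cntn5, Lrrtm3, Unc5d and Efna5 did not. Kcnj6 and Sema3e did not pass either, at log2 differences of 0.35 and 0.31.

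Ribosomal protein genes differed with the depth of the comparison nuclei. Of 78 tested, Rps12 was lower at -0.77 (SE 0.22) and 0 were higher, 2 of the 78 differences were positive, 23 had an unadjusted p under 0.05 and the median was -0.33. Against nuclei of matched depth, 0 of 77 passed, 30 were positive and the median was -0.06, beside 4 of 77 at an unadjusted p under 0.05, where 13.2% of all genes were.

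Training was then compared within the members. No gene of 3297 passed (0%) in the edgeR test. At an unadjusted p under 0.05 there were 93 genes (2.82%), and DESeq2 called 0 genes and had 3 at an unadjusted p under 0.05. The libraries of both groups lay apart without overlap in 32.1% of the genes, 14.9% higher and 17.2% lower in Trained, a background from which nothing is read. The count of called genes was 2 without Trained replicate 1 and 9 without Trained replicate 2, 8 of them lower, where Trained rests on the 20 nuclei of replicate 1 alone. It was 0 without either Untrained library.

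Ttr, which encodes the thyroid hormone carrier transthyretin made by the choroid plexus, had the smallest p. Members had 757 and 1075 CPM in Trained replicates 1 and 2, against 339 and 364 CPM in Untrained replicates 1 and 2, from 13, 118, 44 and 76 UMIs. Both Trained values exceeded both Untrained values, at a log2 difference of 1.49 (SE 0.28, edgeR adjusted p = 0.0656). It passed without Trained replicate 1, with marked doublets removed and with Galntl6 left out of the gate, at 1.60, 1.54 and 1.46.

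The Ttr difference was not particular to these nuclei. CA1-side nuclei without Itga8 had 1003 and 984 CPM in the Trained and 295 and 404 CPM in the Untrained libraries, a log2 difference of 1.51 (SE 0.16, edgeR adjusted p = 0.0210), and Ttr was the only gene of 14860 called there (0.00673%), beside 5.04% at an unadjusted p under 0.05. The difference between both training effects was -0.16 (SE 0.42) and did not pass. Barcodes of the lowest UMI counts, taken as a proxy of free RNA, had still more Ttr, 3486 and 4456 CPM in the Trained and 1072 and 1723 CPM in the Untrained libraries, a log2 difference of 1.51 (SE 0.28, edgeR adjusted p = 0.166). In those barcodes 1 of 12536 genes passed (0.00798%), a lower one, and 9.57% had an unadjusted p under 0.05. The other choroid plexus markers Folr1, Kl and Clic6 had 2, 5 and 1 UMIs in all members together. The part of free RNA in the Ttr values of members was not tested.

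Other genes with higher levels in both Trained libraries did not pass. Hnrnpa3, an RNA-binding protein, had 291 and 301 CPM in Trained and 123 and 148 CPM in Untrained members (log2 difference 1.11, SE 0.37). Slc6a17, a vesicular amino acid transporter, had 175 and 182 CPM in Trained and 61.6 and 81.4 CPM in Untrained members (1.29, SE 0.44). Neto1, an auxiliary protein of kainate receptors, had 466 and 200 CPM in Trained and 100 and 120 CPM in Untrained members (1.15, SE 0.43). Each failed the adjusted threshold and rested on 3 to 8 UMIs in Trained replicate 1. Pcdh17, a protocadherin, stood at 1.05 (SE 0.39), Ano3, a membrane protein of the anoctamin family, at 0.88 (SE 0.31), the thioesterase gene Acot7 at 1.40 (SE 0.53) and the adhesion gene Flrt3 at 1.56 (SE 0.61). In CA1-side nuclei without Itga8 the training differences of Hnrnpa3, Slc6a17 and Neto1 were 0.18, 0.28 and 0.25, and none of the 3 passed.

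Genes with lower levels in both Trained libraries likewise did not pass. Chn1, which encodes a regulator of the GTPase Rac, had 175 and 391.8 CPM in Trained and 670 and 627 CPM in Untrained members, from 3, 43, 87 and 131 UMIs (log2 difference -0.89, SE 0.32). Mef2c, a transcription factor of neuronal activity, had 117 and 255 CPM in Trained and 462 and 397 CPM in Untrained members (-0.89, SE 0.36). Dpp10, the Kv4 channel partner named above, had 990 and 765 CPM in Trained and 1293 and 1364 CPM in Untrained members (-0.69, SE 0.28), and passed with marked doublets removed, at -1.75. Mef2c and Dpp10 stood at -0.51 and -0.69 in CA1-side nuclei without Itga8 and at -0.56 and -0.43 in the low-UMI barcodes. Grcc10 and Usp8 had 0 UMIs in Trained replicate 1, and Ythdc1, Auh and Rab27b had 1 UMI each there, with log2 differences between -1.75 and -1.29 for the 5 genes.

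**Figure D5:**
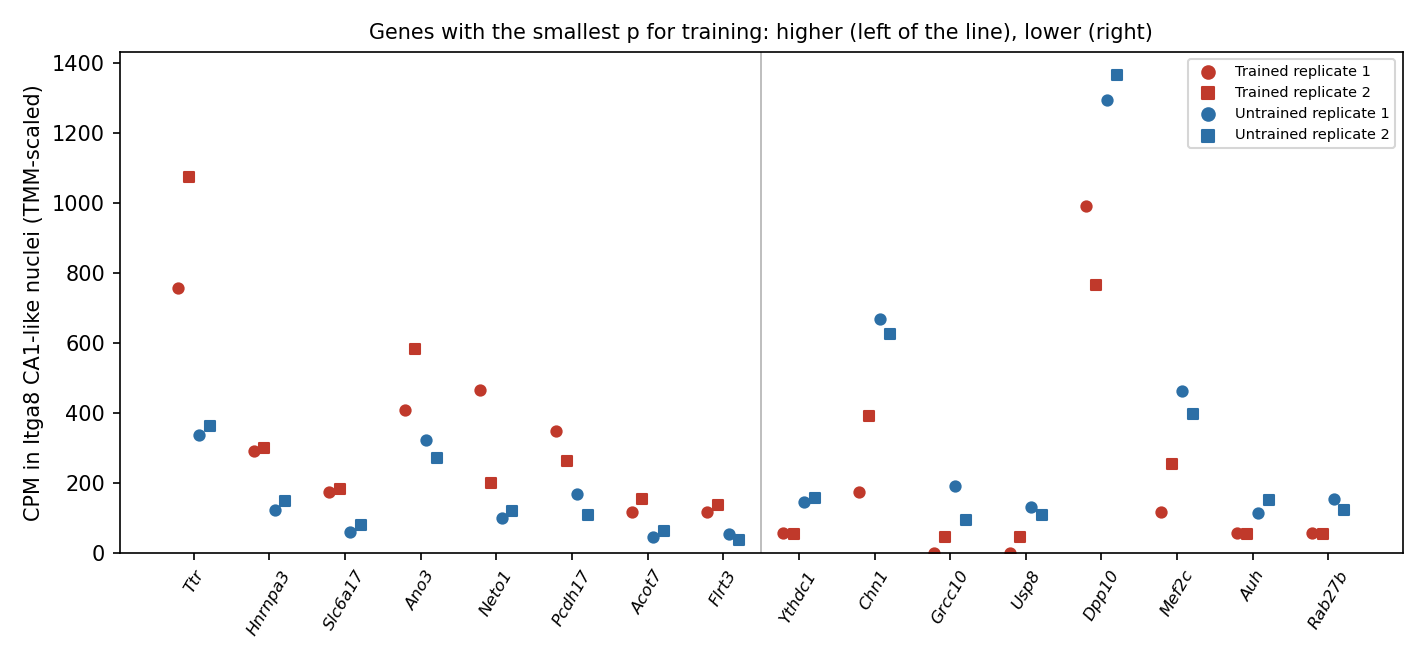
TMM-scaled CPM in Itga8 CA1-like nuclei (vertical axis, from 0) of the 16 genes named for training, 8 higher in both Trained libraries (left of the line) and 8 lower (right); each point is 1 library. Ttr stands at 757 and 1075 CPM in the Trained libraries and 339 and 364 CPM in the Untrained libraries, and none of the 16 passed the adjusted threshold.

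Genes of memory and plasticity showed no separation by training. Camk2a, the alpha subunit of the calcium/calmodulin-dependent kinase, had 932 and 1631 CPM in Trained and 1278 and 1603 CPM in Untrained members (log2 difference -0.03, SE 0.28). Gria1 had 2971 and 4337 CPM in Trained and 4011 and 4423 CPM in Untrained members (-0.15, SE 0.27), and Grin2b, an NMDA receptor subunit, 2272 and 2843 CPM in Trained and 2533 and 2877 CPM in Untrained members (-0.04, SE 0.26). Homer1, a postsynaptic scaffold, stood at -0.14 (SE 0.34), Prkcz, an atypical protein kinase C, at 0.34 (SE 0.46) and Wwc1, which encodes KIBRA, at 0.29 (SE 0.43). The groups overlapped for each of these 6 genes, and their signs changed in some alternatives. Arc, Bdnf and Prkci did not reach the count filter in the members.

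Lists gave no edgeR call for training. Of all 3297 genes tested, 2.82% lay at an unadjusted p under 0.05 in edgeR, and the list counts below stand beside that share. At an unadjusted p under 0.05 there was 1 of 9 AMPA receptor genes (Cacng3, -1.09), 1 of 26 potassium channel genes (Dpp10), 2 of 23 genes of synaptic adhesion (Tenm1, 0.78, and Lrrtm4, 0.60), 1 of 14 cadherins (Pcdh17), 2 of 23 axon guidance genes (Efna5, -1.43, and Slit2, 1.01) and 1 of 4 inhibitory markers (Erbb4, -0.97). Erbb4 had 466 and 164 CPM in Trained and 439 and 416 CPM in Untrained members, so that its lower value came from Trained replicate 2 alone. Tle4, 1 of 2 cortical markers, stood at 0.86, and Ttr was the only choroid plexus marker tested. None was found among 10 integrin adhesion, 21 Golgi glycan, 3 copine, 6 Wnt5a and polarity, 1 immediate early, 3 NMDA receptor, 9 GABA-A receptor, 15 sodium and calcium channel and 5 CA1 pyramidal genes tested. Of 69 ribosomal protein genes 4 were under 0.05 and 10 differences were positive, with a median of -0.35 against -0.03 over all genes. No integrin subunit other than Itga8 reached the count filter in the members alone.

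Itga8 itself stood at 2037 and 1552 CPM in Trained members and 1208 and 1126 CPM in Untrained members, without scaling. The order followed the depth of the nuclei, since nearly every member had 2 or 3 Itga8 UMIs over a total that was lower in the Trained libraries. It is therefore given as a description of the rule.

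The effect of training was finally set against that in CA1-side nuclei without Itga8. No gene of 11083 passed (0%) in the edgeR test of the difference, and 365 genes (3.29%) lay under 0.05 before adjustment, with no DESeq2 fit made. Without Trained replicate 2 the count was 48, all lower, and it was 0 without any other library. Flrt3 had 71.1 and 115 CPM in Trained and 45.7 and 32.8 CPM in Untrained members, against 48.8 and 61.1 CPM in the Trained and 68.9 and 59.2 CPM in the Untrained CA1-side sums, a difference of effects of 1.60 (SE 0.59). Vstm2l and Smyd4 stood at 2.46 (SE 0.75) and 2.44 (SE 0.90), Neat1, a nuclear long noncoding RNA, at -2.17 (SE 0.65) and Khdc4 at -2.72 (SE 0.89). Itpr2, an IP3 receptor, had 0 and 0 UMIs in Trained members and 12 and 15 in Untrained members, and Egln1, an oxygen-sensing hydroxylase, 0 and 0 UMIs in Trained members and 7 and 14 in Untrained members. Ubfd1 was found in Trained replicate 2 alone, with 4 UMIs. These counts are too low for a fold.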

How the data were processed

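Nuclei of the hippocampus of 2 trained and 2 untrained mice, per the series' design text, were sequenced in 4 libraries with a droplet-based 3' single-cell kit. The authors deposited raw UMI counts per gene and barcode for 32285 features. Per the submitters' processing notes the reads were processed with Cell Ranger 8, STAR and the GRCm39 mouse genome, while the file headers name Cell Ranger 7.0.0. Whether intronic reads were counted is not given in the sources used here. The members and the gene lists were chosen with earlier results of these data known.

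Barcodes with at least 600 UMIs and at most 5% mitochondrial UMIs were kept. Counts were summed per library and population, the 16 gate genes were removed, and sums were tested in edgeR 4.0.16 (R 4.3.3) with TMM scaling, its filter on low counts, the quasi-likelihood test and Benjamini-Hochberg adjustment at 0.05. SE is the log2 difference divided by the root of F. DESeq2 1.42.0 was an alternative for training. For training, the p-values measure the spread between 2 libraries a group. For members against CA1-side nuclei without Itga8 they measure the spread of the differences within the 4 libraries, since the library was a block. For the difference of effects they measure the spread of these differences between 2 libraries a group. The p of the share comes from permuting the libraries. Each level, interval or floor covers counting error only. Doublets were scored against simulated doublets, 2 per nucleus, with the 20 nearest neighbours over 30 components of 2000 genes (scikit-learn 1.9.0), nuclei above percentile 92 of the score in their library were marked, and these were kept except in 1 alternative. Low-UMI barcodes were the lowest 20% of barcodes of each library by UMIs. The genes named are, for members against CA1-side nuclei without Itga8, up to 12 a direction by smallest p with the same sign in 4 libraries. For training they are 8 a direction by smallest unadjusted p with both Trained libraries on 1 side of both Untrained ones, for the difference of effects 4 a direction, and in each list those with the smallest p. Ribosomal, mitochondrial, predicted and sex-linked genes were left out of the ranking. Mecom, Plcl1 and the other genes of the comparison without Galntl6 were named after their values were seen, as were 1700007F19Rik and 4921539H07Rik. Tables were handled with Python 3.11.15, numpy 2.4.6, pandas 2.3.3 and scipy 1.17.1, and the fits were tested on simulated counts. Alternatives changed the scaling, the filter, the UMI and mitochondrial limits, the doublets, the Itga8 minimum, the comparison nuclei and the library or replicate block, and left out each library.

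The replicate numbers were checked for pairing: the difference of replicate 1 and 2 in Trained members correlated with that in Untrained members at 0.0282 over 3297 genes. This check cannot decide on pairing, because Trained replicate 1 held 20 members and its sums carry much counting error. Whether libraries of the same number share a batch was not tested.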

Additional observations from a re-analysis of the deposited data

How the results depend on the processing

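The comparisons rest on 2 libraries a group, with 20 members in Trained replicate 1. The log2 ratio of the share was -0.57 as deposited and 0.50 after thinning to 600 UMIs, 0.51 after thinning with at least 1 Itga8 UMI, and -1.42 to 0.04 with 1 library left out. Genes called for training in members numbered 0, with 2 after removal of marked doublets, 1 without Galntl6, and 0 to 9 with 1 library left out. The difference of training effects gave 0 to 48 with 1 library left out. Members against CA1-side nuclei without Itga8 gave 118 genes, with 30 at 3 Itga8 UMIs (Trained replicate 1 held no such nucleus and was dropped), 13 without Galntl6, 34 without the library block, 216 at matched depth, 1 against nuclei with 1 Itga8 UMI, and 32 to 370 with 1 library left out. The remaining settings gave between 91 and 151. The replicate block called 0 genes for training in members (66 at an unadjusted p under 0.05) and 0 for the difference of effects (457). Among named genes, 314 values for training stayed on their side, 4 passed and 12 changed sign, and in the comparison with CA1-side nuclei 173 stayed and 64 no longer passed. The sign changed for Homer1 at 1000 UMIs (0.13), Wwc1 with doublets removed (-0.14) and Camk2a at 3 Itga8 UMIs (0.046). With 1 library left out Homer1 ranged from -1.12 to 0.0028, Prkcz from -1.34 to 0.77, Wwc1 from -0.043 to 0.81, Camk2a from -0.74 to 0.16, Gria1 from -0.61 to 0.031 and Grin2b from -0.36 to 0.060. The cause of these changes was not tested. Leaving out Galntl6 and the thinned share with 1 UMI were chosen after seeing the data.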
